A study of Mus musculus with 6 samples.

Results

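CTCF peaks were examined at the loci of 9 T cell cytokine genes, and of Rad50 among the Th2 cytokine genes, in thymic regulatory T cells with and without cGAS. The members are all peaks that overlap 1 of 5 windows by at least 1 bp. Peaks were taken by position and not by a measured value, but the windows were chosen with earlier results of these data known. In mm39 the windows are chromosome 3 from 37000000 to 37450000 (Il2 and Il21), chromosome 11 from 53400000 to 53720000 (Il4, Il13, Rad50 and Il5, called the Th2 window here), chromosome 10 from 118150000 to 118450000 (Ifng), chromosome 1 from 20700000 to 20950000 (Il17a and Il17f) and chromosome 1 from 130850000 to 131100000 (Il10). They hold 187 of the 172581 peaks of the 6 lists. Peaks of different lists that overlap were merged into regions, which gave 86 regions in the windows of 94951 in all.

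Libraries came from mouse thymus, from cells labelled as thymic Treg, in 2 genotypes, WT and Cgas Knockout (Cgas_KO), with 3 libraries each. The labels give no strain, age, allele or promoter, and they do not say whether replicates are separate animals, so a p-value here reflects the spread among these 6 samples and that spread may be technical. The assay was CUT&RUN: an antibody against CTCF tethers a nuclease that releases the DNA around the bound protein for sequencing. The study set out to profile CTCF binding in both genotypes. Only peak lists were used, so neither the labelled cell type nor the loss of Cgas could be checked against expression.

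CTCF is a zinc-finger protein that binds a long DNA motif and stops the cohesin complex as it extrudes chromatin loops, so that pairs of CTCF sites often mark the bases of loops and the borders of domains. Cytokine genes of T cells lie in small clusters whose enhancers act over distance, and CTCF sites are known within and around several of them, including the Th2 cluster and Ifng. Regulatory T cells are known for IL-10 and for using IL-2 made by other cells, while Il4, Il13, Il5, Ifng, Il17a, Il17f and Il21 are mainly products of effector T cells. cGAS is a sensor of cytosolic DNA that is also found in the nucleus.

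Of the 10 landmark genes, 8 have a promoter in the RefSeq table at hand, which is of another build, GRCm38.p6, and spans 250 bases before to 50 after a start site. The pentamer CCCTC, from which CTCF takes its name, was found on either strand at 4 of the 8, and in 66.0% of the 32851 promoters in the table. The stretches around the last match before the outermost listed start are shown so that the landmark genes can be told by sequence. Capitals mark the match, written as GAGGG because all 4 lie on the opposite strand, and the listed strand of each gene is minus.
Il2 (chr3:37126143-37126177, GRCm38.p6): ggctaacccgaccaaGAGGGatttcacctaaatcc
Il21 (chr3:37232655-37232689, GRCm38.p6): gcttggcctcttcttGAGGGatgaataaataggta
Il4 (chr11:53618844-53618878, GRCm38.p6): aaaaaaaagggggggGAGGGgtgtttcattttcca
Il17f (chr1:20784438-20784472, GRCm38.p6): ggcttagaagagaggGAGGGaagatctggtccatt
These matches are letters in a window and not measured sites, and their positions cannot be set beside the mm39 positions of the peaks. In the RefSeq gene table of that build the order of protein-coding genes is Adad1, Il2, Il21 and Cetn4 on chromosome 3. On chromosome 11 it is Kif3a, Il4, Il13, Rad50, Il5 and Irf1. Il17a and Il17f lie between Pkhd1 and Mcm3, and Il10 between Il19 and Mapkapk2. No gene annotation of mm39 was used, so no peak is assigned to a promoter, exon or intron here.

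The lists hold 27128 to 31707 peaks on chromosomes 1 to 19, X and Y, with a median width of 2569 to 3607 bp. Read depth is unknown. The maximum signal of a peak, its height, comes in whole steps whose size is set by the list, and the median peak is 11 to 14 steps high. Heights are given in steps, as a percentile within the list (100 is the tallest peak), or as relative height, the height over the median height of the list. The sources used here do not say what 1 step is in reads. Cgas_KO replicate 3 stands apart, with the most and narrowest peaks and the lowest median height, so rank score differences of the regions in all 6 lists are also given without it.

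The windows differed widely in how many CTCF peaks they held. Peaks were dense at the Th2 and Il10 windows, and less so at Il2-Il21. Ifng and Il17a-Il17f did not pass a test of whether a difference from the rest of the genome repeats over libraries. Per library, 27 to 41 peaks fell in the 5 windows together, 19.9 ± 3.16 per Mb (SD, n = 6) against 10.9 ± 0.638 per Mb in the rest of the genome. The density was higher in 6 of 6 libraries (two-sided exact sign-flip test over libraries, p = 0.031, the smallest it can give for n = 6).

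**Figure D1:**
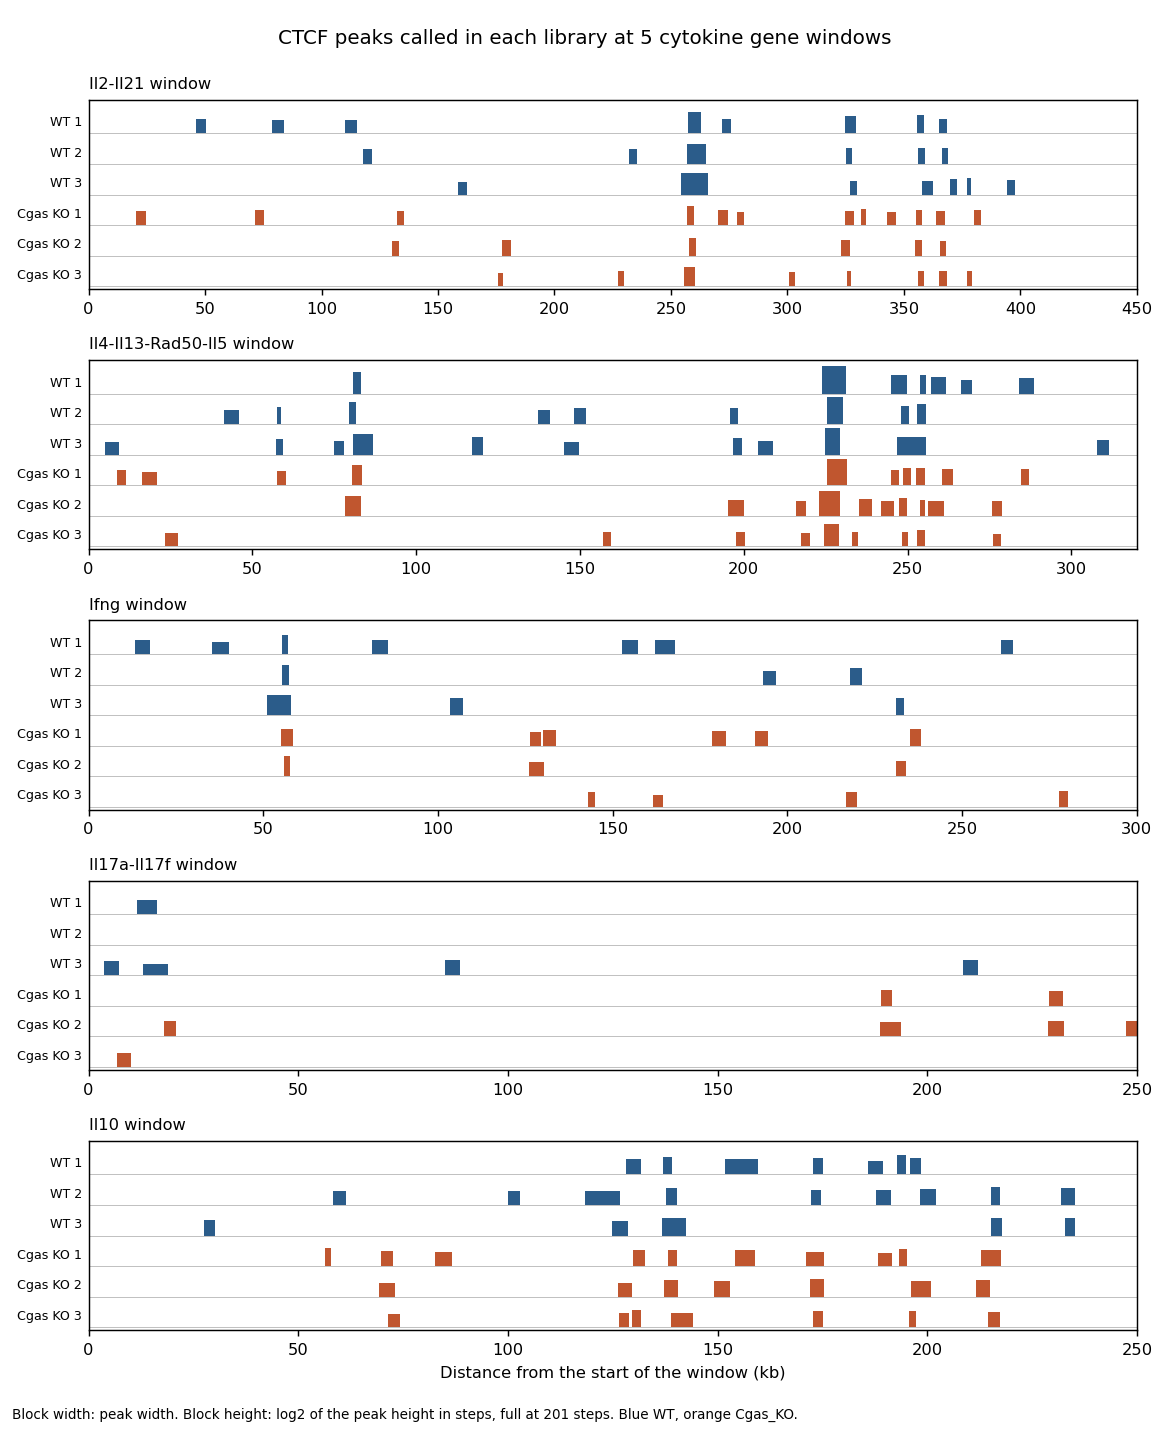
CTCF peaks called in each of the 6 libraries (rows, blue WT and orange Cgas_KO) along the 5 windows, by distance from the window start in kb. Block width is the peak width and block height grows with log2 of the peak height, full at 201 steps; the Th2 window holds the tallest block in every library, and the Il17a-Il17f window has 0 to 4 blocks per library.

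At the Th2 window the density was 29.2 ± 4.27 peaks per Mb (SD, n = 6), higher than the rest of the genome in 6 of 6 libraries (exact sign-flip p = 0.031). The Il10 window had 30.7 ± 8.26 per Mb, also higher in 6 of 6 (exact sign-flip p = 0.031, n = 6). Il2-Il21 had 17.4 ± 4.95 per Mb and was higher in 6 of 6 (exact sign-flip p = 0.031, n = 6). When each list was cut to the 50% of peaks with the most total signal, the excess at Il2-Il21 fell from 6.55 to 3.46 per Mb and no longer passed (exact sign-flip p = 0.125, n = 6). Ifng had 14.4 ± 5.84 per Mb, higher in 3 of 6 libraries (exact sign-flip p = 0.3125, n = 6). The difference there was 3.59 per Mb, and 1.71 without WT replicate 1. Il17a-Il17f had 8.0 ± 6.69 per Mb, higher in 2 of 6 (exact sign-flip p = 0.375, n = 6). WT replicate 3 and Cgas_KO replicate 2 had 16.0 per Mb and WT replicate 2 had 0. The difference was -2.85 per Mb, and it was -4.58 without WT replicate 3, -4.51 without Cgas_KO replicate 2, -1.24 without WT replicate 2 and -1.83 without Cgas_KO replicate 3. Both outcomes depended on the window edges: with 25 kb trimmed from each side the difference from the rest of the genome was 5.15 per Mb at Ifng and -7.52 per Mb at Il17a-Il17f (exact sign-flip p = 0.031 for each, n = 6). These are 6 tests, and with any 1 library left out the test cannot go below 0.0625. All 6 libraries read the same stretch of genome. The test therefore shows whether a difference repeats over libraries, and not whether a window is unusual in the genome. The share of other stretches that would pass it was not computed.

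Set against tiles of their own length that hold a peak in any list, the Th2 window had more peaks per list than 93.5% of 8021 tiles and the Il10 window more than 93.9% of 10250. The figure was 79.3% for Il2-Il21, 72.0% for Ifng and 50.9% for Il17a-Il17f. The tile comparison is a description of where these windows stand. It shows Il17a-Il17f close to the middle tile, although it lies under the genome mean.

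**Figure D2:**
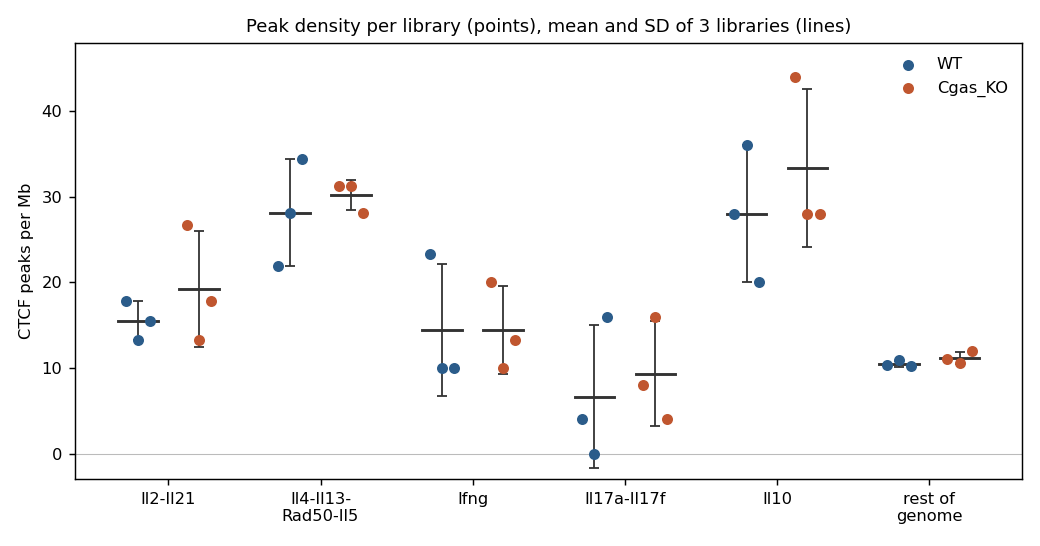
CTCF peaks per Mb in each window and in the rest of the genome. Points are libraries (blue WT, orange Cgas_KO) and lines the mean with its SD over 3 libraries per genotype; the genotypes overlap in every window, and the Th2 and Il10 windows lie above the rest of the genome in all 6 libraries.

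The number of peaks per window did not separate the genotypes in any of the 5 windows. Groups overlapped in 5 of 5, where 6.06% of tiles of 300 kb had counts that do not overlap between WT and Cgas_KO (3.85% higher and 2.21% lower in Cgas_KO). The Th2 window held 7, 9 and 11 peaks in WT, against 10, 10 and 9 in Cgas_KO (exact permutation p = 0.8, n = 3 per group). Il10 held 7, 9 and 5 against 11, 7 and 7 (exact permutation p = 0.7, n = 3). Cgas_KO replicate 1 is the high library there, as it is at Il2-Il21, where the counts were 8, 6 and 7 against 12, 6 and 8 (exact permutation p = 0.7, n = 3).

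Ifng held 7, 3 and 3 peaks in WT, against 6, 3 and 4 in Cgas_KO (exact permutation p = 1, n = 3). Il17a-Il17f held 1, 0 and 4 in WT, against 2, 4 and 1 in Cgas_KO (exact permutation p = 0.8, n = 3). In both windows the range within WT was as wide as the whole range. All permutation tests are two-sided over libraries, and with 3 against 3 none can go below 0.1. There were 15 such tests, 3 measures in each of 5 windows, and none is adjusted.

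The share of each window under peaks overlapped between genotypes in all 5 windows too, where 10.5% of tiles did not overlap (4.08% higher and 6.4% lower in Cgas_KO). The Th2 window was covered at 10.8% ± 3.56 (SD) in WT, against 10.1% ± 2.30 in Cgas_KO (exact permutation p = 0.8, n = 3), and the Il10 window at 9.84% ± 3.05 and 10.5% ± 2.70 (exact permutation p = 0.7, n = 3). Il2-Il21 was covered at 6.62% ± 1.29 and 6.06% ± 2.64 (exact permutation p = 0.8, n = 3). The median height percentile overlapped in 4 of the 5 windows. At Il17a-Il17f it was 26.9 and 34.8 in the 2 WT lists with a peak and 45.9, 53.8 and 41.0 in Cgas_KO (exact permutation p = 0.1, n = 2 and 3), where 12.2% of tiles with a peak in every list did not overlap (5.33% higher and 6.85% lower in Cgas_KO). Those tiles compare 3 lists with 3, so their share is not one for 2 lists against 3. With total signal in place of height the sign at Il17a-Il17f turned, to -10.3 percentile points (exact permutation p = 0.6, n = 2 and 3).

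A minority of the regions recurred between libraries. Of the 86 regions in the windows, 7 were called in all 6 lists (8.14%, against 5.16% of all regions) and 5 in exactly 5. Together these 12 make up 14.0% of the regions, against 8.12% in the genome. A single list had called 47 (54.7%, against 69.9%). The 12 recurrent regions were spread unevenly: 4 at Il2-Il21, 3 at the Th2 window, 1 at Ifng, 0 at Il17a-Il17f and 4 at Il10.

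The Th2 window holds Il4, Il13 and Il5, cytokines of type 2 immunity, and Rad50, a DNA repair gene known for carrying the Th2 locus control region. Its strongest CTCF region, chromosome 11 from 53623066 to 53631461, was 199, 201 and 171 steps high in the WT libraries and 143, 104 and 63 in Cgas_KO. Every Cgas_KO library was lower than every WT library in steps, a unit whose size differs between the genotypes. It was the tallest peak of the window in all 6 lists and ranked between 61 and 179 in lists of 27128 to 31707 peaks, at percentile 99.7 ± 0.10 in WT and 99.6 ± 0.186 in Cgas_KO (SD, n = 3).

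Of the 4896 regions in all 6 lists, 33.1% had relative heights lower in Cgas_KO without overlap, and that region was among them. Its relative height had a mean of 14.3 ± 1.16 in WT, against 7.98 ± 2.24 in Cgas_KO (SD, n = 3). Its rank score, the normal score of the height rank among regions in all 6 lists, differed by -0.12 (SE 0.20, limma adjusted p = 0.875). On log2 heights centred on those regions the difference was -0.56 (SE 0.24, limma adjusted p = 0.241). Its summits, the midpoints of the maximum-signal stretch, lay between 53628199 and 53628483 in all 6 libraries. It was also the sole region of the 5 windows that stayed in all 6 lists when each list's peaks had to cover 50% of a region.

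To its left, 147 kb away by median summit, chromosome 11 from 53478361 to 53486919 was called in 5 lists and not in Cgas_KO replicate 3. It was 58, 68 and 48 steps high in the WT libraries and 39 and 36 in the other Cgas_KO libraries, at percentiles of 95.6 to 98.1. The summits of the 5 libraries fell within 75 bp of one another. Among the 647 regions missing in Cgas_KO replicate 3 alone, it ranked 4 by mean percentile of the other lists.

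To the right of the tallest region, chromosome 11 from 53641837 to 53655662 was called in all 6 lists, at 29, 40 and 24 steps in the WT libraries and 21, 25 and 16 in Cgas_KO. It overlapped between genotypes in relative height, and its rank score differed by -0.21 (SE 0.30, limma adjusted p = 0.851). The merged region contains 2 separate summit positions. One, from 53649106 to 53649604, was found in 6 lists at 29, 28 and 24 steps in the WT libraries and 19, 25 and 11 in Cgas_KO. The other, from 53654512 to 53654806, was found in 5 lists, at 27 and 40 steps in WT replicates 1 and 2 and at 21, 16 and 16 in Cgas_KO. The heights compared for the merged region are those of the tallest peak in each library, so they mix the 2 positions. They came from the first in WT replicates 1 and 3 and Cgas_KO replicate 2, and from the second in the others. Without WT replicate 3 the merged region fell into 2.

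A weaker region of the Th2 window, chromosome 11 from 53595256 to 53600240, was named after its values were seen. It was called in 4 lists, at 17 steps in WT replicates 2 and 3 and at 16 and 10 in Cgas_KO replicates 2 and 3, with summits within 163 bp. The remaining 19 regions of the window were called in 1 to 3 lists.

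Ifng encodes interferon gamma, the signature cytokine of Th1 and cytotoxic cells. Its window had 1 recurrent region, chromosome 10 from 118201062 to 118208607, again missing in Cgas_KO replicate 3 alone. Heights were 29, 37 and 41 steps in the WT libraries and 17 and 36 in Cgas_KO replicates 1 and 2, so Cgas_KO replicate 2 lay within the WT range and replicate 1 under it. Percentiles were 86.3 to 93.9 in WT and 71.6 and 96.0 in Cgas_KO. Summits fell within 128 bp, from 118206620 to 118206748. It ranked 57 of the 647 regions missing in Cgas_KO replicate 3 alone. The other 15 Ifng regions were called in 1 list (10 regions) or 2 lists (5 regions), and in Cgas_KO replicate 3 the tallest peak of the window was 13 steps high.

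Both strong regions absent from Cgas_KO replicate 3 are set here beside the other gaps. Over the genome, 647 of the 2817 regions in exactly 5 lists lack that library (23.0%), against 21.8% for Cgas_KO replicate 2, 17.9% for Cgas_KO replicate 1 and 11.7% to 13.5% for each WT library. In the windows, 2 of the 5 such regions lack it, 2 lack WT replicate 3 and 1 lacks WT replicate 1. A missing call means that no block of signal passed the authors' threshold in that list. Whether the lower median height or narrower peaks of Cgas_KO replicate 3 play a part was not tested. Without that library both regions are called in every remaining list.

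The Il2-Il21 window holds the genes of IL-2, the growth factor on which regulatory T cells depend, and of IL-21, a cytokine of follicular helper T cells. Its strongest region, chromosome 3 from 37254485 to 37265790, was called in all 6 lists and was the tallest peak of the window in each. Heights were 58, 38 and 50 steps in the WT libraries and 34, 24 and 29 in Cgas_KO. No Cgas_KO library reached the lowest WT library in steps or in relative height. For relative height this held in 33.1% of the 4896 regions in all 6 lists. Percentiles were 95.6 ± 1.31 in WT and 93.8 ± 4.46 in Cgas_KO (SD, n = 3) and overlapped. The rank score differed by -0.20 (SE 0.29, limma adjusted p = 0.845) and the log2 height by -0.35 (SE 0.24, limma adjusted p = 0.454). Its summits spanned 383 bp.

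To the right, 3 more recurrent regions follow, at summit distances of 67.3, 31.4 and 9.90 kb in turn. Chromosome 3 from 37322999 to 37330051 was 20, 15 and 9 steps high in the WT libraries and 11, 13 and 12 in Cgas_KO. Chromosome 3 from 37354820 to 37362320 was 26, 17 and 10 steps high in the WT libraries and 12, 15 and 14 in Cgas_KO. In both, WT replicate 1 was the highest and WT replicate 3 the lowest of all 6 libraries, and the summit of WT replicate 3 lay kilobases away from the others. The other 5 libraries had summits within 224 bp in the first and 450 bp in the second. The WT percentiles therefore spread widely, 48.6 ± 32.8 and 57.7 ± 32.9 (SD, n = 3), around Cgas_KO values of 44.5 ± 18.8 and 57.5 ± 20.6. Their rank scores differed by 0.00 (SE 0.55) and -0.02 (SE 0.58), with limma adjusted p = 1 and 0.998. These values rest on which WT libraries enter. Without WT replicate 3 the differences were -0.62 (SE 0.39) and -0.63 (SE 0.43), and without WT replicate 1 they were 0.37 and 0.43.

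The last, chromosome 3 from 37363725 to 37369099, was called in 5 lists and not in WT replicate 3, at 12 and 14 steps in the WT libraries and 11, 12 and 13 in Cgas_KO. All of these values lie near the median height of their lists. The left 250 kb of the window, before the strongest region, held no region called in more than 2 lists.

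Il17a and Il17f encode the cytokines that define Th17 cells. Their window had 7 regions, none in more than 3 lists, and WT replicate 2 had no peak there at all. The highest peak was 16 steps in Cgas_KO replicate 1 and 10 to 15 steps in the other libraries with a peak. By mean percentile the leading region was chromosome 1 from 20947491 to 20950743, called in Cgas_KO replicate 2 alone at 15 steps. The 2 regions named after their values were seen, chromosome 1 from 20888805 to 20893694 and from 20928729 to 20932700, were called in Cgas_KO replicates 1 and 2 and in no WT list. Heights there were 16 and 11 steps in the first and 11 and 13 in the second, all near the median of their lists. The region from 20711591 to 20720778 was called in WT replicates 1 and 3 and Cgas_KO replicate 2, with summits kilobases apart. In the other windows, regions in 2 lists of a single genotype occurred in both directions, and more were of Cgas_KO than of WT. Those of Cgas_KO, also named after their values were seen, were 7 to 13 steps high. On chromosome 3 they started at 37130209 and 37175590, on chromosome 11 at 53615949 and 53675784, and on chromosome 10 at 118276146. Those of WT, also named after their values were seen, were called in WT replicates 2 and 3. They were chromosome 1 from 131081876 to 131085335, at 19 and 22 steps, and chromosome 11 from 53545233 to 53551700, at 16 and 8 steps. The genome share of such regions was not computed.

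Il10 encodes the anti-inflammatory cytokine that regulatory T cells use to restrain other immune cells. Its window had many recurrent but modest regions, and none in the top 5% of heights. Chromosome 1 from 130986670 to 130994098 was called in all 6 lists, at 22, 21 and 24 steps in the WT libraries and 17, 19 and 11 in Cgas_KO. Relative height had a mean of 1.68 ± 0.148 in WT, against 1.23 ± 0.231 in Cgas_KO (SD, n = 3) and did not overlap, while percentiles did. The rank score differed by -0.38 (SE 0.24, limma adjusted p = 0.641), and by -0.18 without Cgas_KO replicate 3. Summits of 5 libraries lay within 258 bp, and that of Cgas_KO replicate 3 lay elsewhere.

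Next to it, chromosome 1 from 130968443 to 130982802 was also in all 6 lists, at 15, 9 and 12 steps in the WT libraries and 15, 10 and 19 in Cgas_KO. Cgas_KO replicate 3 was highest and WT replicate 2 lowest. It was the only one of the 7 regions in all 6 lists with a higher mean relative height in Cgas_KO, and its rank score differed by 0.77 (SE 0.65, limma adjusted p = 0.743). That difference was 0.14 without Cgas_KO replicate 3, 0.47 without WT replicate 2, 1.42 without Cgas_KO replicate 2 and -0.77 with total signal in place of height. Summits in this region spread over 7183 bp, the most of the 7, so its libraries need not describe 1 site.

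At Il10, 2 more regions were called in 5 lists. Chromosome 1 from 131020980 to 131025306 lacked WT replicate 3, at 19 and 12 steps in the WT libraries and 11, 24 and 17 in Cgas_KO. Chromosome 1 from 131061532 to 131067928 lacked WT replicate 1, at 23 and 21 steps in the WT libraries and 17, 16 and 12 in Cgas_KO. The region with the highest mean percentile of the window, chromosome 1 from 130906373 to 130907790, rests on Cgas_KO replicate 1 alone, at 24 steps.

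One region of the 5 windows was called in all 3 lists of a genotype and in none of the other. Chromosome 1 from 130919225 to 130924389, in the Il10 window, was called in Cgas_KO at 12, 10 and 8 steps and in 0 of 3 WT lists. These heights are below the median of each list, at percentiles of 35.2, 15.8 and 15.9. Summits spanned 727 bp. The background for such regions is 0.33% of all regions, and 0.377% for the WT counterpart, of which the windows hold 0. Fisher's exact test on 3 against 3 libraries cannot go below 0.1 for 1 region, so none was run. By any call at all, 28 of the 86 regions were in lists of WT only (32.6%, against 34.8% of all regions), 29 in lists of Cgas_KO only (33.7%, against 41.4%) and 29 in lists of both.

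**Figure D3:**
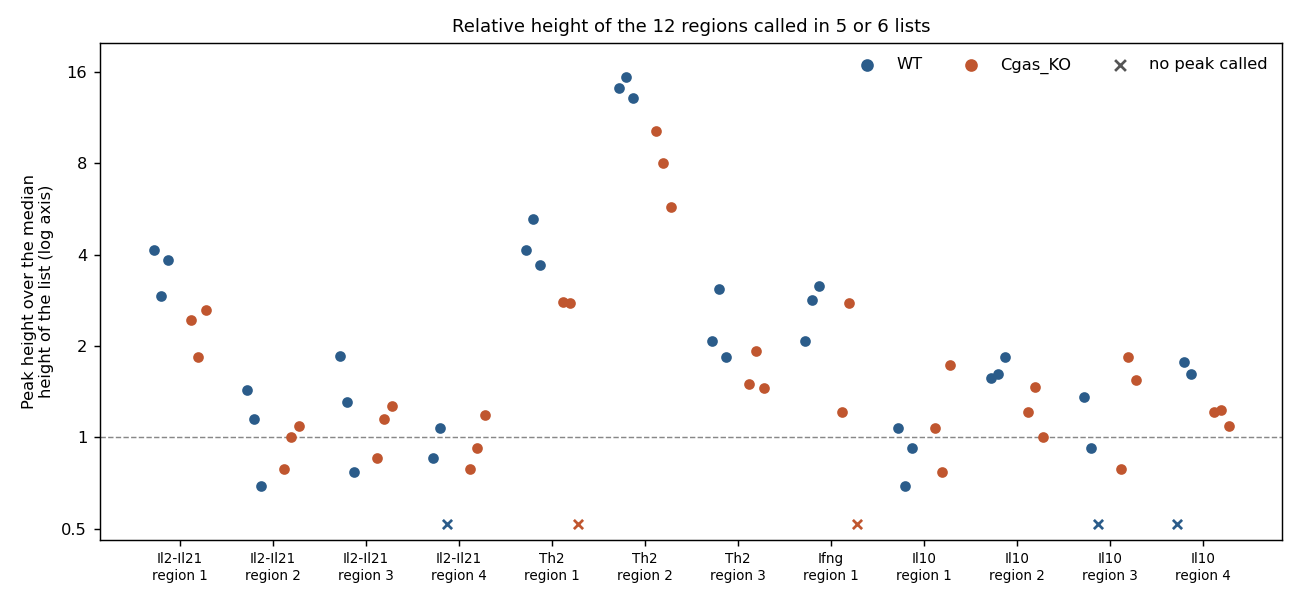
Relative height, the peak height over the median height of the list (log axis), of the 12 regions called in 5 or 6 lists, numbered from left to right within each window. Points are libraries (blue WT, orange Cgas_KO), crosses libraries with no peak called; the second Th2 region stands above all others at 5.73 to 15.5.

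Heights of the recurrent regions, seen together, tended to be lower relative to the list in Cgas_KO, as they were across the genome. Of the 7 regions in all 6 lists, 3 had relative heights that did not overlap and were lower in Cgas_KO, where 33.1% of the 4896 such regions in the genome were. None of the 7 was higher without overlap, where 1.76% were. The median log2 difference of relative height was -0.47 over the 7 and -0.36 over all 4896. It was -0.66 in the fifth of regions with the highest mean percentile. It was -0.88 for the tallest Th2 region and -0.66 for the strongest Il2-Il21 region.

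On ranks no difference was found. The limma test on rank scores across all 4896 regions called 0 (0%) at an adjusted p of 0.05, and 0 of the 7 had an unadjusted p under 0.05, where 462 regions (9.44%) did. On log2 heights limma called 1 region (0.0204%), which is not in these windows. On that scale 2 of the 7 had an unadjusted p under 0.05, where 18.3% did. They were the tallest Th2 region and the Il10 region with scattered summits, in opposite directions. Without Cgas_KO replicate 3 the rank score differed by -0.02 at the tallest Th2 region, -0.13 at the right Th2 region and -0.39, -0.27 and -0.31 at the Il2-Il21 regions from left to right. Height percentiles failed to separate the genotypes in any of the 7, where 6.76% of regions were lower and 9.4% higher in Cgas_KO without overlap.

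**Figure D4:**
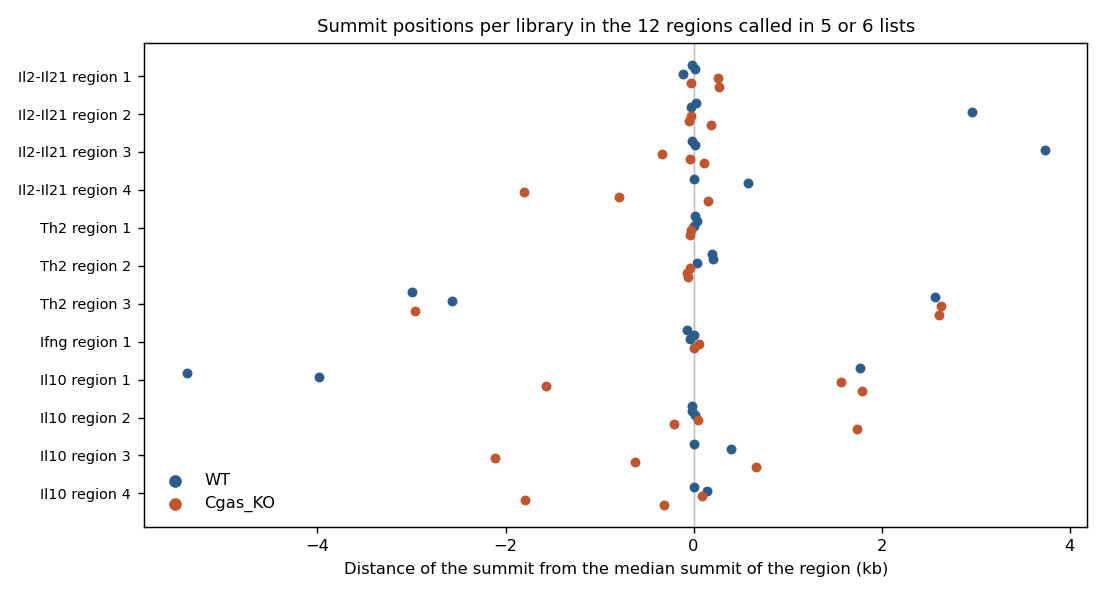
Distance in kb of the summit of each library from the median summit, for the 12 regions called in 5 or 6 lists (blue WT, orange Cgas_KO). Summits pile up at the median in the first 2 Th2 regions, the Ifng region and the first Il2-Il21 region, and fall into 2 groups in the third Th2 region.

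Summit positions give a finer count of shared sites than merged peaks do. When summits at gaps of up to 500 bp were joined, the 5 windows had 121 summit positions, of which 16 were shared by 3 or more lists (13.2%, against 10.2% in the genome) and 9 by 5 or 6 lists (7.44%, against 4.28%). The 9 are 5.73 per Mb, against 1.98 per Mb over the genome. By window, 3 lie at Il2-Il21, 4 at the Th2 window, 1 at Ifng, 0 at Il17a-Il17f and 1 at Il10. The Il10 window, whose peaks were as dense as those of the Th2 window, had fewer positions shared by 5 or 6 lists. Most of its shared positions were in 3 or 4 lists, so at 3 or more lists the Il10 and Th2 windows lay closer together. Positions in all 6 lists numbered 3, of which 2 are in the Th2 window and 1 at Il2-Il21.

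Among the regions in 5 or 6 lists, the narrowest summit spans were those of tall peaks. Summits spanned 75 bp at the left Th2 region, 128 bp at Ifng, 284 bp at the tallest Th2 region and 383 bp at the strongest Il2-Il21 region, while the other 8 regions in 5 or 6 lists spanned 1941 to 7183 bp. A single library can widen such a span, and lower peaks had tight summit positions too. The position at chromosome 3 from 37325697 spanned 224 bp in 5 lists, at 11 to 20 steps. That at chromosome 1 from 130988138 spanned 258 bp in 5 lists, at 17 to 24 steps. Over the genome the span had a median of 696 bp in all 4896 regions in 6 lists and of 244 bp in the 1806 of them with a mean percentile of 90 or more. Within 200 bp were 20.8% of the regions in 6 lists and 0 of the 7 here, and 13.3% of the regions in exactly 5 lists and 2 of the 5 here. Spans depend on how many libraries enter and how wide their peaks are.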

How the data were processed

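The 6 CTCF CUT&RUN peak lists, 1 per library, take their genotype from the labels. Per the submitters' processing notes, reads were aligned with Bowtie2 and peaks called with SEACR 1.3. The names of the deposited lists carry 0.01, non and stringent, terms that SEACR uses for its threshold, normalization and mode. The deposited lists give signal per peak, summed and at its maximum, as the authors' caller wrote them, and were used for ranks and ratios within a list. The notes name mm10 and mm39, and the sequence names are those of mm39. Positions count from 1. Peak lists give no depth, so no counting interval was computed, and 3 libraries per group limit the precision.

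The windows, the landmark genes and the tests were chosen with earlier results of these data known. Regions are named when called in 5 or 6 lists, when called in 3 lists of 1 genotype and 0 of the other, or when highest in mean percentile in their window; others are said to be chosen after their values were seen. Density in the rest of the genome is over 2649 Mb between the first and last peak of each chromosome. Regions in all 6 lists were tested with limma 3.58.1 (R 4.3.3) with Benjamini-Hochberg adjustment over all of them. Other steps ran in scipy 1.17.1, pandas 2.3.3, numpy 2.4.6 and Python 3.11.15, with figures from matplotlib 3.10.9. The limma fit and the merging of peaks were tried on simulated data. The permutation and sign-flip tests were checked on small fixed examples only. The joining of summits and the alternatives for density were added after the data were seen.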

Additional observations from a re-analysis of the deposited data

How the results depend on the processing

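No genotype comparison of peaks, coverage or height percentile in a window passed 0.05 under any alternative run, and with 3 against 3 libraries none could, so the signs alone are compared. Peaks differed by -0.333 to 1.67 at the Th2 window and -0.167 to 1.83 at Il17a-Il17f with 1 library left out. Coverage differed by -2.07 to 0.384 points (Il2-Il21), -1.88 to 1.3 (Th2), -2.38 to 0.950 (Ifng), -1.22 to 2.18 (Il17a-Il17f) and -0.860 to 2.19 (Il10), and by -0.242 at Il17a-Il17f with lists matched to the shortest. The height percentile at Il2-Il21 differed by -7.20 to 10.9 with 1 library left out, -5.61 with total signal, -0.909 with means and -11.8 in the top 50%. With total signal it was 10.1 at Ifng and -10.3 at Il17a-Il17f.

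The excess density with 1 library left out was 4.75 to 7.38 per Mb (Il2-Il21), 17.1 to 19.7 (Th2), 17.2 to 21.8 (Il10) and 7.79 to 9.54 (all windows), each at an exact sign-flip p = 0.0625 because 5 libraries allow no less. It was 1.71 to 4.49 at Ifng and -4.58 to -1.24 at Il17a-Il17f, where no such test passed. It was 3.46 at Il2-Il21 in the top 50%, and with trimmed windows 5.15 at Ifng and -7.52 at Il17a-Il17f. Regions in all lists numbered 1 at 50% coverage and 3 in the top 50%, where regions of 1 list numbered 24. With 1 library left out, 0 to 2 regions were in all WT lists only (2 without WT replicate 1) and 1 to 5 in all Cgas_KO lists only (4 without Cgas_KO replicate 1, 5 without Cgas_KO replicate 3). Leaving out a library eases that requirement by construction, and the Il10 region called in Cgas_KO alone was among them each time.

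On rank scores limma called 0 regions in all alternatives run but log2 heights (1). Differences of single regions, none of which passed, turned sign as follows. Chromosome 1 from 130968443 gave -0.77 with total signal, and 0.14 to 1.42, with no turn, with a library left out; without WT replicate 1 it was not matched to a region and could not be fitted. Chromosome 3 from 37322999 gave -0.19 with total signal and -0.62 to 0.37 with a library left out, and chromosome 3 from 37354820 gave 0.12 on log2 heights and -0.63 to 0.43 with a library left out. Left-out libraries gave -0.387 to 0.0630 at chromosome 3 from 37254485 and -0.332 to 0.0657 at chromosome 11 from 53641837. At 50% coverage a single one of the 7 could be fitted. Otherwise the cause of these changes was not tested.

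Replicate numbers are shared by both genotypes, but same-numbered libraries did not deviate together (correlations of -0.0170 to -0.0130). Libraries of different numbers gave -0.00260 to 0.0171. The labels do not say whether the numbers pair the samples, and correlations of heights cannot exclude it, so the main tests were left unpaired. With the replicate number as a block limma called 0 regions, with 422 at an unadjusted p under 0.05, and no sign in the windows changed. The sign-flip test of 3 pairs cannot go below 0.25.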
